A study of Mus musculus with 9 samples.

Results

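The genes described here are 8 transcription factor genes tied to quiescence and to progenitor states of lymphocytes: Tcf7, Lef1, Foxo1, Foxo3, Bach2, Myb, Satb1 and Runx1. They were taken by symbol, 8 of the 27179 genes counted, and all 8 passed the filter on low counts. RNA sequencing was done on natural killer (NK) cells, cytotoxic cells of the innate immune system, from the spleen of C57BL/6 mice. The Id2-null group (3 libraries) lacked ID2, a helix-loop-helix protein that holds E protein transcription factors off DNA, and the WT group (3 libraries) was wild type, and both were cultured for 7 days in the cytokine IL-15. The Immature, M1 and M2 groups (1 library each) were wild-type splenic populations sorted and used without culture. The labels give the culture for samples 1 to 6, which were taken in listed order as the libraries with a genotype. The sources used here do not state how Id2 was deleted, which markers defined the sorts, the age or sex of the mice, or whether replicates came from separate mice. The p-values therefore cover only library-to-library spread, which may be technical.

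TCF-1 (from Tcf7) and LEF-1 are paired HMG-box factors that bind the same DNA motif and mark early T and innate lymphoid precursors. FOXO factors are active when PI3K and AKT signalling is low, and they switch on genes of resting and recirculating lymphocytes, while growth factor signals send them out of the nucleus. BACH2 represses effector genes, MYB maintains blood progenitors, SATB1 organises chromatin in thymocytes, and RUNX1 binds DNA together with CBF-beta, as does RUNX3, the RUNX protein of mature cytotoxic lymphocytes.

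Total counts ran from 4128414 to 4831831 per library, and the limit that a count of 0 allows, 3 counts, came to 0.62 to 0.73 CPM (counts scaled to library size). Id2 had 44 to 113 counts in the Id2-null and 1925 to 1958 in the WT libraries, which matches their labels. All 10 defining NK markers were above 3 counts in every library, and they summed to 6983 to 7804 CPM in Id2-null, 9598 to 12728 in WT and 15297 to 35960 in sorted libraries. By gene, 5 of the 10 had a higher and 5 a lower fitted level in Id2-null cells, with a median log2 fold change of -0.06. The lower sum was therefore not shared by all markers. Of these markers 1 was called lower in Id2-null cells and 0 higher. It was Gzma, which encodes granzyme A, from 3704 to 465 CPM (adjusted p = 0.0226, edgeR). That call was lost with the robust option (0.083) and without Id2-null replicate 1 (0.111) or WT replicate 1 (0.104) or 2 (0.0731). With the replicate block 3 were lower, Tbx21, which encodes the NK factor T-bet (136 CPM in WT, 89.3 in Id2-null; blocked adjusted p = 0.014), and Prf1, which encodes perforin (1451 and 501 CPM; 0.00844), besides. Xist stood at 657 to 874 CPM in Id2-null and 0.21 to 1.16 CPM in WT libraries, and the Y-linked Ddx3y at 0.22 to 0.63 and 71.8 to 78.5 CPM, so sex and genotype cannot be told apart in any comparison of the cultures. The sorted libraries held both transcripts. None of the 8 members lies on the X or Y chromosome. Of the 11022 genes tested, 370 differed between the genotypes (3.36%), 203 higher (1.84%) and 167 lower (1.52%) in Id2-null cells. Deviations of replicate 3 from its group mean correlated at 0.42 between the genotypes over the genes tested, and at -0.40 to -0.26 with those of replicates 1 and 2 of the other genotype. Such deviations cancel out over the 3 libraries of a genotype, so these values are not independent of each other. With the replicate number as a block the calls were 371 higher and 325 lower (6.31% of genes), and without replicate 3 of both genotypes they were 539 and 475.

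Upstream sequence is shown for Foxo1 and Runx1, called members that moved in opposite directions and have a RefSeq promoter window outside the annotated gene. E proteins bind E-boxes (CANNTG, its own reverse complement), and capitals mark each E-box. The Foxo1 sequence is chr3:52268087-52268335 on the plus strand and the Runx1 sequence is chr16:92826150-92826324 on the minus strand (RefSeq, GRCm38.p6). Each begins 250 bases before the RefSeq start and stops where a GENCODE exon begins.
Foxo1: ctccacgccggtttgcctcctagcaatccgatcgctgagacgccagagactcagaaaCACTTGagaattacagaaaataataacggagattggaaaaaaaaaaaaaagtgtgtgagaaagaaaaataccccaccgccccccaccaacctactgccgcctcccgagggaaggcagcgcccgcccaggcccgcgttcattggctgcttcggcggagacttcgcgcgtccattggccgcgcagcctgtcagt
Runx1: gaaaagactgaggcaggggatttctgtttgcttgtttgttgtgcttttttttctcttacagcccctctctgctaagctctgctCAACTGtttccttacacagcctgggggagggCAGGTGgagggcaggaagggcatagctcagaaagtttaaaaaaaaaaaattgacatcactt
The 249 bases of Foxo1 held 1 E-box, CACTTG, and the 175 bases of Runx1 held 2, CAACTG and CAGGTG. The 75 bases of the Runx1 window that are left out held a further one, CACGTG. An E-box of any middle letters was present in 66.2% of all 32851 RefSeq windows of 250 bases, and CAGGTG or its complement CACCTG in 17.2%. Over the 17 windows of the 8 members, 9 held an E-box, in 5 members. The TCF-LEF letters CTTTGA (or TCAAAG), present in 13.8% of all windows, were found in 1 window each of Lef1 and Bach2. The FOXO letters GTAAACA (or TGTTTAC; 3.17% of windows) and the RUNX letters TGTGGT (or ACCACA; 4614 windows) were in none of the 17. Every window of Tcf7 and Bach2 lay inside the gene as RefSeq draws it, so no sequence of these is shown. These are matches of letters only.

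Between the genotypes, Tcf7, Foxo1 and Bach2 rose in Id2-null cells and Runx1 fell, while Lef1, Foxo3, Myb and Satb1 did not pass the test. That is 3 members of 8 called higher against 1.84% of all genes, and 1 called lower against 1.52%. The values of the genotypes did not overlap for 6 members, against 20.4% of all genes tested. The median log2 fold change of the 8 was 0.43, against 0.01 over all genes. The members were chosen with earlier results of these data known, so these comparisons with all genes are not independent of that choice. The replicate block changed no member's call.

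**Figure D1:**
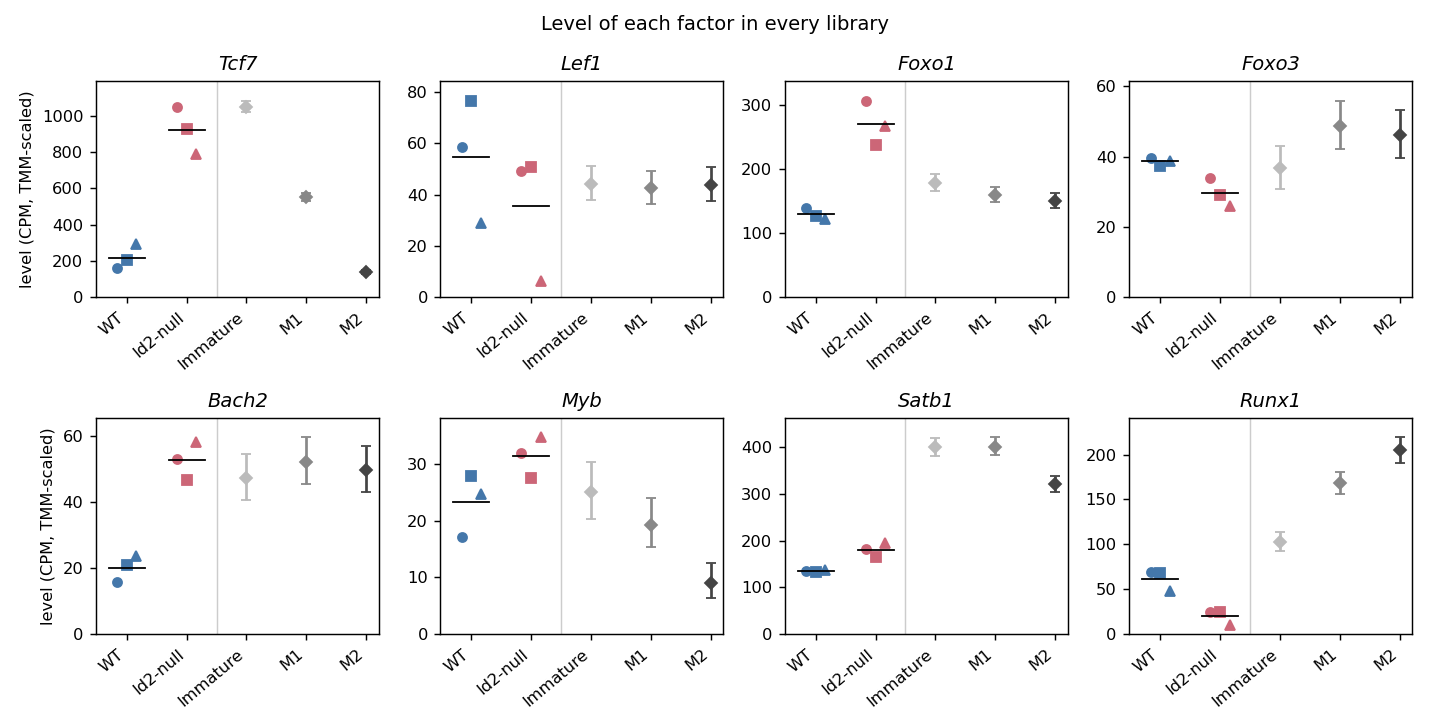
Level of each factor (CPM, TMM-scaled, linear axis from 0) in the WT and Id2-null cultures and the Immature, M1 and M2 libraries. Circles, squares and triangles are replicates 1, 2 and 3, black lines are means of 3, and diamonds with bars are single libraries with exact Poisson 95% intervals. Tcf7, Foxo1 and Bach2 points of the Id2-null cultures lie above all WT points, and Runx1 points lie below them.

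Tcf7 (Entrez 21414, chromosome 11, positions 52246527 to 52283383) had the largest difference of the members, and the highest level per length (TPM) in every library. It stood at 1049, 926 and 787 CPM in Id2-null replicates 1 to 3 and at 159, 204 and 291 CPM in WT replicates 1 to 3. The lowest Id2-null library was above the highest WT library, and the gap was narrowest in replicate 3, where the Id2-null level was lowest and the WT level highest. The mean rose from 218 ± 66.8 to 921 ± 131 CPM (SD, n = 3 each). The log2 fold change was 2.08 with an SE of 0.24 (adjusted p = 0.0041, edgeR quasi-likelihood test). The log2 ratio of same-numbered cultures was 2.72, 2.18 and 1.44. In sorted cells Tcf7 stood at 1050 CPM in Immature, 550.1 in M1 and 139 in M2, so each population had a lower level than the one before it. All Id2-null cultures (787 to 1049 CPM) lay above M1, and the WT cultures (159 to 291 CPM) between M2 and M1. Id2-null replicate 1 and Immature differed by less than counting error, and their order turned with library sizes alone (1065 and 999 CPM).

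Lef1 (Entrez 16842, chromosome 3, positions 131110297 to 131224357), the partner gene of Tcf7, did not share this pattern. It had 49.1, 50.7 and 6.32 CPM in Id2-null and 58.3, 76.6 and 28.9 CPM in WT cultures. Replicate 3 was the lowest of each genotype, with 31 counts in Id2-null and 150 in WT, and the genotypes overlapped. Means were 35.4 ± 25.2 and 54.6 ± 24.1 CPM (SD, n = 3 each), and the log2 difference was -0.62, SE 0.65 (adjusted p = 0.741, edgeR). Without Id2-null replicate 3 the log2 fold change was -0.12, and with any other 1 culture left out it ran from -0.98 to -0.30. With the replicate block it was -0.85 (adjusted p = 0.217, edgeR). The log2 ratio of same-numbered cultures was -0.25, -0.59 and -2.19. The sorted libraries were level at 44.1, 42.5 and 43.8 CPM, and the 95% counting interval of the M2 to Immature log2 ratio was -0.32 to 0.30.

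Foxo1 (Entrez 56458, chromosome 3, positions 52268337 to 52350109) encodes the main FOXO factor of resting lymphocytes. It had 306, 237 and 267 CPM in Id2-null and 139, 127 and 122 CPM in WT cultures. The groups were far apart, and the libraries differed more within Id2-null (237 to 306 CPM) than within WT (122 to 139 CPM). Foxo1 rose from 130 ± 8.62 to 270.1 ± 34.6 CPM (SD, n = 3 each). The log2 fold change was 1.06 with an SE of 0.13 (adjusted p = 0.00555, edgeR), or 2.09-fold. Same-numbered cultures gave log2 ratios of 1.14, 0.90 and 1.13. Sorted cells had 179, 159 and 150.1 CPM in Immature, M1 and M2, below every Id2-null culture. Immature was above every WT culture. M1 was above them on CPM, but on TPM it had 52.5, just under the 53.0 of WT replicate 1. The place of M2 depended on the scaling too: with library sizes alone it had 133 CPM, below the 143 CPM of WT replicate 1.

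Foxo3 (Entrez 56484, chromosome 10, positions 42181845 to 42276695), a second FOXO gene, stood lower in Id2-null cells but did not pass the test. Its levels were 33.9, 29.0 and 25.9 CPM in Id2-null and 39.6, 37.5 and 38.9 CPM in WT cultures. The WT libraries were tight and all above the Id2-null ones. Means were 29.6 ± 4.03 and 38.6 ± 1.09 CPM (SD, n = 3 each), and the log2 difference was -0.38, SE 0.14 (adjusted p = 0.271, edgeR; unadjusted p = 0.03). Sorted cells had 36.7 CPM in Immature, 48.7 in M1 and 46.1 in M2.

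Bach2 (Entrez 12014, chromosome 4, positions 32238413 to 32586109) encodes a repressor of effector differentiation. It had 53.0, 46.7 and 58.1 CPM in Id2-null and 15.8, 20.8 and 23.7 CPM in WT cultures, with no overlap. Bach2 rose from 20.1 ± 3.97 to 52.6 ± 5.72 CPM (SD, n = 3 each). The log2 fold change was 1.39 with an SE of 0.18 (adjusted p = 0.00775, edgeR), or 2.62-fold. The same-numbered log2 ratios were 1.74, 1.17 and 1.30. Sorted libraries had 47.1, 52.1 and 49.6 CPM, 2.34 to 2.59 times the WT culture mean. They were within the range of the Id2-null cultures on this scale, but with library sizes alone Immature (44.8 CPM) and M2 (44.0 CPM) were below the lowest of them (47.7 CPM).

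Myb (Entrez 17863, chromosome 10, positions 21124930 to 21160984), a progenitor factor, differed little between the genotypes. It had 31.9, 27.5 and 34.7 CPM in Id2-null and 17.1, 27.9 and 24.6 CPM in WT cultures, and Id2-null replicate 2 lay just under WT replicate 2. Means were 31.4 ± 3.63 and 23.2 ± 5.54 CPM (SD, n = 3 each), and the log2 difference was 0.44, SE 0.21 (adjusted p = 0.387, edgeR). Between sorted libraries its levels were 25.0, 19.3 and 9.02 CPM, from 98, 80 and 36 counts. Myb in M2 was 2.77-fold below Immature.

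Satb1 (Entrez 20230, chromosome 17, positions 51736187 to 51833290), a chromatin organiser, had 181, 165 and 196 CPM in Id2-null and 135, 133 and 137 CPM in WT cultures. The groups did not overlap, but the difference was small and missed the threshold. Means were 181 ± 15.3 and 135 ± 2.36 CPM (SD, n = 3 each), and the log2 difference was 0.43, SE 0.11 (adjusted p = 0.0973, edgeR) and adjusted p = 0.0532 with the replicate block. The sorted libraries stood at 400.4, 402 and 321 CPM, above all 6 cultures, and 2.38 to 2.97 times the WT culture mean.

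Runx1 (Entrez 12394, chromosome 16, positions 92601466 to 92826074) went the other way. It had 24.4, 24.7 and 9.995 CPM in Id2-null and 69.6, 67.8 and 47.6 CPM in WT cultures. No values overlapped, and replicate 3 was the lowest of each genotype. Runx1 fell from 61.7 ± 12.2 to 19.7 ± 8.43 CPM (SD, n = 3 each). The log2 fold change was -1.64 with an SE of 0.33 (adjusted p = 0.0412, edgeR). This call sat close to the threshold. Leaving out any 1 culture other than Id2-null replicate 3 raised its adjusted p above 0.05 (0.0582 to 0.18; WT replicate 1 gave the highest) as did the robust option of edgeR (0.0537). It was kept with the replicate block (adjusted p = 0.00535) and without replicate 3 of both genotypes (3.84e-06). The same-numbered log2 ratios were -1.51, -1.46 and -2.25. In sorted cells Runx1 stood at 103, 168 and 205 CPM in Immature, M1 and M2, above every culture.

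**Figure D2:**
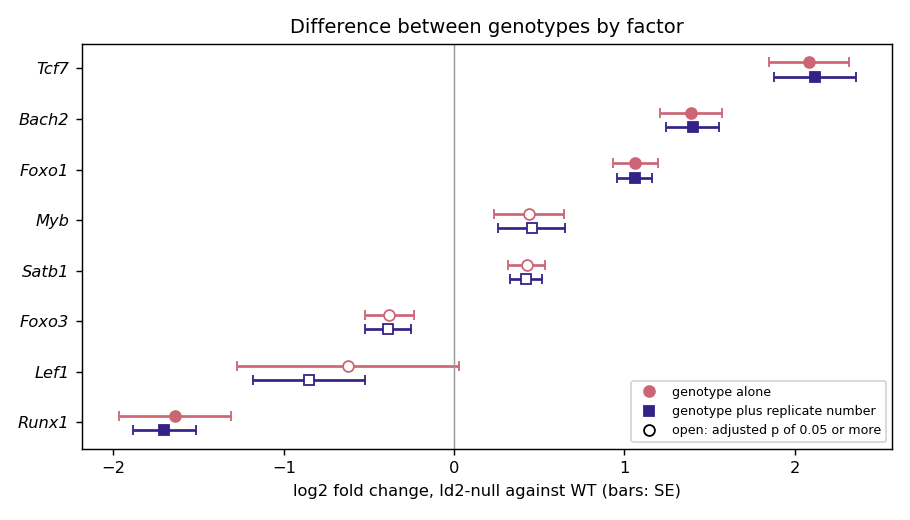
Log2 fold change of each factor, Id2-null against WT (x axis, with SE bars), from edgeR with genotype alone (circles) and with the replicate number as a block (squares). Filled points have an adjusted p under 0.05. Tcf7 (2.08), Bach2 (1.39), Foxo1 (1.06) and Runx1 (-1.64) are filled in both fits.

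Other cell types were looked for by fixed marker lists. B cell markers summed to 1.04 to 2.11 CPM in the cultures, with Ms4a1 and Pax5 at 0 in all 6 cultures. Of 10 myeloid markers 1 passed the filter, Itgax, which NK cells also express, and Lyz2, S100a8, S100a9, Adgre1 and Mpeg1 were at 0 in all 6 cultures. Cd14 had a mean of 2.29 CPM in WT and 0.28 CPM in Id2-null cultures. T cell markers were above 3 counts for 5 or 6 of 11 genes in the cultures and summed to 218 to 383 CPM in Id2-null and 85.9 to 266 CPM in WT libraries. Cd3d, Cd3e, Cd3g and Lat made up most of these sums, Cd4 was at 0 in every culture, and Cd8a stood near 1.07 CPM in both genotypes. Of the 5 T cell markers tested, 0 were called by edgeR (2 at unadjusted p under 0.05, 1 by DESeq2 and 1 by limma voom). With the replicate block Cd3d (27.9 against 115 CPM) and Cd3g were higher and Cd3e was lower in Id2-null cells. WT replicate 2 stood apart, with 82.4 CPM of Cd3e against 16.9 and 18.1 in WT replicates 1 and 3. Without it the log2 fold change, with genotype alone, went from -1.40 to -0.24 for Cd3e, from 2.06 to 2.82 for Cd3d and from 1.57 to 2.52 for Cd3g. The part of these in the Tcf7 and Bach2 results was not tested. In bulk RNA fewer cells of a type and less RNA per cell cannot be told apart.

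Cell cycle genes, set here beside factors named for quiescence, did not pass the test between the genotypes. Of 14 genes 0 were called by edgeR, DESeq2 or limma voom, and 0 had an unadjusted p under 0.05. The median log2 fold change was -0.27, and 13 of the 14 had a lower fitted level in Id2-null cells, as did 5282 of all 11022 genes. Their sum was 2619 to 4121 CPM in Id2-null and 4090 to 4554 CPM in WT cultures, lowest in Id2-null replicate 3. It was 1270 CPM in Immature, 596 in M1 and 710.0 in M2, so all cultures were above all sorted libraries.

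The sorted populations hold 1 library each, so their differences have no replicate check, and intervals cover counting error only. Of the 8 members, Tcf7 and Myb were over 2-fold lower in M2 than in Immature, a size reached by 6.75% of 11267 genes, and 7.96% were over 2-fold higher. The Tcf7 log2 ratio was -2.92 (95% counting interval -3.05 to -2.79), a 7.57-fold difference, and that of Myb was -1.47 (-2.06 to -0.90). Runx1 was 1.99-fold higher in M2 (log2 ratio 1.00, interval 0.82 to 1.17), just inside the 2-fold line.

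The steps differed by member. Tcf7 was 1.91-fold lower in M1 than in Immature and 3.96-fold lower in M2 than in M1, where 2.29% of 11139 genes were over 2-fold lower and 5.98% over 2-fold higher. From Immature to M1 no member passed 2-fold, against 2.74% of 11060 genes higher and 5.47% lower. Myb lay 1.29-fold lower in M1 than in Immature, with an interval of the log2 ratio that includes 0 (-0.82 to 0.07), and 2.14-fold lower in M2 than in M1. Runx1 had its larger step first, 1.64-fold up from Immature to M1 and 1.22-fold from M1 to M2. Satb1 differed by less than counting error between Immature and M1 (log2 ratio 0.00, interval -0.10 to 0.11) and 1.25-fold lower in M2 than in M1. Foxo1, Foxo3, Bach2 and Lef1 stayed within 1.33-fold of each other across the 3 libraries.

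**Figure D3:**
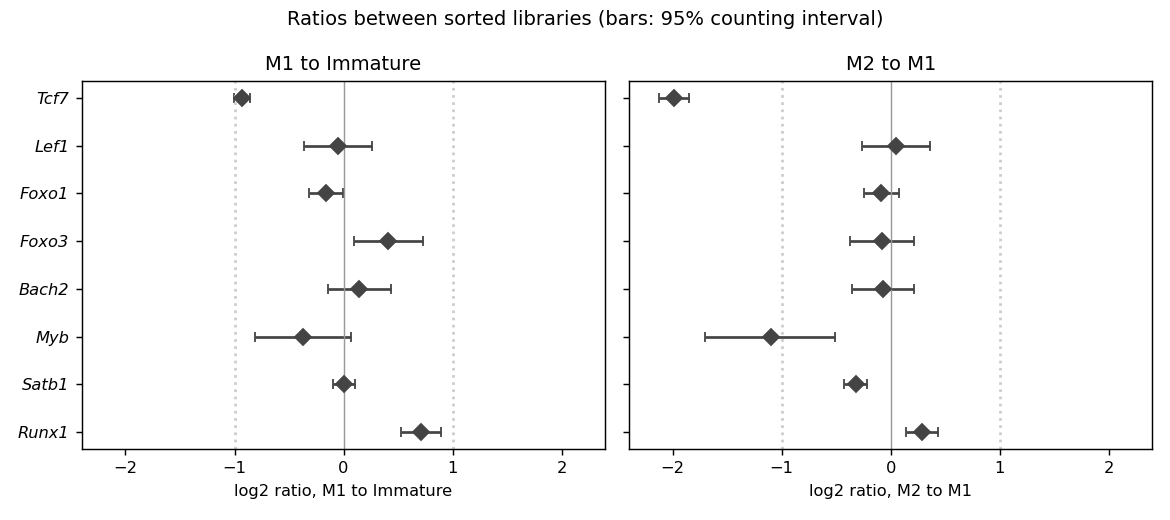
Log2 ratios of the 8 factors between sorted libraries, M1 to Immature (left) and M2 to M1 (right), with exact 95% counting intervals and dotted lines at 2-fold. Tcf7 lies below 0 in both panels, Runx1 above 0 in both, and Lef1 and Bach2 have intervals that cross 0 in both.

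Markers of other cells were not level across the sorted libraries. B cell markers summed to 66.7, 44.4 and 117 CPM in Immature, M1 and M2. Lyz2, a myeloid gene, had 56.8, 60.1 and 231 CPM, and T cell markers summed to 661, 195 and 272 CPM, with Cd3d at 234 CPM in Immature. Lef1, Satb1, Tcf7, Bach2 and Runx1 are expressed in some of these cells, and the part of such cells in the sorted values was not tested.

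The genotype result and the sorted series share no library. Tcf7 was higher in Id2-null cultures and lower from Immature to M2, and Runx1 was lower in Id2-null cultures and higher from Immature to M2. Foxo1 and Bach2 did not follow this: they were 2.09-fold and 2.62-fold higher in Id2-null cultures and lay within 1.19-fold and 1.11-fold between sorted libraries. Over all 203 genes called higher in Id2-null cells, 34.5% were over 2-fold lower in M2 than in Immature and 7.88% over 2-fold higher, against 7.66% and 4.67% of all genes tested. Of the 167 called lower, 26.9% were over 2-fold higher in M2 and 5.99% over 2-fold lower. These shares are over genes that passed the filter in the cultures, with no minimum count in the sorted libraries. The 6.75% lower and 7.96% higher given above are over genes with at least 10 counts in Immature or M2, so the backgrounds differ.

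Culture and sorted cells were set side by side with no test, since culture, sort and population cannot be told apart. Satb1 and Bach2 were over 2-fold lower in the mean of the WT cultures than in all 3 sorted libraries, as were 12.1% of 12178 genes (13% were over 2-fold higher). Runx1 was lower by 1.66-fold against Immature, 2.72-fold against M1 and 3.32-fold against M2. Tcf7 was 4.82-fold lower than in Immature and 1.57-fold higher than in M2. Myb was 2.57-fold higher in the WT cultures than in M2. Lef1 in the WT cultures was 1.24 to 1.29 times its sorted levels.

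Levels of different genes were compared per length, as TPM (counts scaled to gene length and library size). In WT cultures the order was Tcf7 (207), Foxo1 (49.3), Lef1 (46.5), Satb1 (42.1), Foxo3 (28.3), Runx1 (17.6), Myb (13.0) and Bach2 (5.01). Lef1, with 25.6 to 63.7 TPM by library, overlapped Foxo1, Satb1 and Foxo3, and Runx1 (14.1 to 20.0) overlapped Myb (9.57 to 15.1). In Id2-null cultures the order was Tcf7 (861), Foxo1 (102), Satb1 (56.2), Lef1 (29.3), Foxo3 (21.5), Myb (17.6), Bach2 (13.1) and Runx1 (5.53). Runx1, with 3.08 to 6.76 TPM, was the lowest member within each Id2-null library. Its range overlapped that of Lef1 alone, whose replicate 3 had 5.83 TPM. The range of Lef1 also overlapped those of Foxo3, Myb and Bach2. The ranges of Foxo3 and Myb overlapped, as did those of Myb and Bach2, though Myb was above Bach2 within each Id2-null library.

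Ratios to a family member within a library do not depend on the scaling between libraries. Foxo1 was 4.26 to 5.37 times Foxo3 in Id2-null and 1.64 to 1.83 times in WT cultures, on TPM. Bach2 stood at 0.99, 1.01 and 1.199 times Bach1, a related repressor, in Id2-null and at 0.23 to 0.41 times in WT cultures. Runx1 was 30.0 to 41.0 times below Runx3 in Id2-null and 10.2, 10.99 and 10.6 times below in WT cultures, while in sorted cells the gap was 6.09, 4.83 and 3.09 times. Tcf7 was 20.1 to 137 times Lef1 in Id2-null and 2.93 to 11.1 times in WT cultures. The first genes of these ratios are the 4 called members, so the ratios are not separate evidence. An exact two-sided permutation test of 3 against 3 libraries gave p = 0.1 for each (adjusted p = 0.1 over the 4), the smallest that this design allows.

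**Figure D4:**
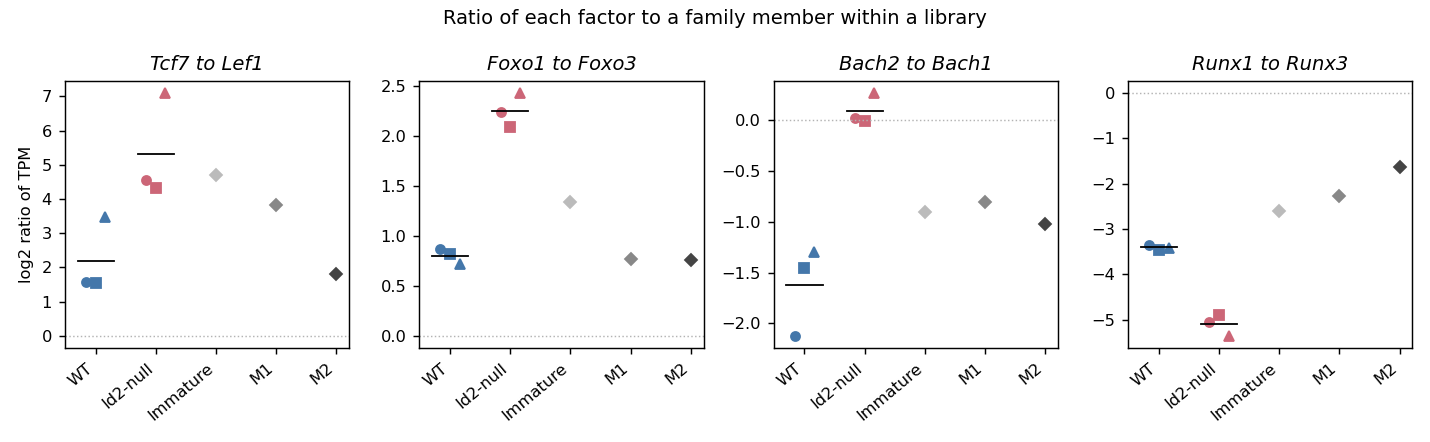
Log2 ratio of TPM within each library for Tcf7 to Lef1, Foxo1 to Foxo3, Bach2 to Bach1 and Runx1 to Runx3, with symbols as replicates 1 to 3 (circle, square, triangle), lines as means of 3 and diamonds as single sorted libraries. Id2-null points lie above WT points in the first 3 panels and below them in the Runx1 panel, where the Id2-null mean is -5.11 and the WT mean -3.41.

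The other genes of the same families did not pass the test. Of 11 such genes 7 were tested, and 0 were called by edgeR, DESeq2 or limma voom, with 0 at an unadjusted p under 0.05. Runx3 stood at 346 ± 114 against 345 ± 68.1 CPM (Id2-null and WT, SD, n = 3 each) and Cbfb, the shared partner of RUNX proteins, at 228 against 239 CPM. Runx2 had 114 against 89.4 CPM, Foxo4 24.4 against 25.0 CPM and Bach1 34.0 against 42.3 CPM. Mybl1 and Mybl2, MYB relatives of which the second is a cell cycle factor, had 10.6 and 18.1 CPM in Id2-null and 12.7 and 26.3 CPM in WT cultures, and 1.21 to 4.33 CPM in sorted cells. Tcf7l2 reached 14 counts, in M2, and Tcf7l1 had at most 6 counts in any library and Foxo6 had 0.

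Genes around the factors were counted from fixed lists. Of 22 tested FOXO targets 13 had a higher and 9 a lower fitted level in Id2-null cells, with a median log2 fold change of 0.10. Some results of this list are not reported here. Among these targets, Klf2 and Ccr7 did not pass the test with genotype alone and were called higher in Id2-null cells with the replicate block. Klf2, a factor of quiescence and recirculation, had 6.78 ± 2.89 CPM in WT and 23.5 ± 17.9 CPM in Id2-null cultures, with an adjusted p of 0.264 that became 0.0289 under the block. Ccr7, a chemokine receptor for lymph node entry, had 1.21 and 6.72 CPM, with 0.0541 and 0.0167. In sorted cells Klf2 had 323, 740 and 807 CPM, far above every culture. Il7r, which encodes a receptor chain for IL-7, did not pass the filter, with 0.95 CPM in WT and 0.72 in Id2-null cultures, and had 256, 45.1 and 34.6 CPM in Immature, M1 and M2. Of 19 kinases and phosphatases upstream of FOXO, 0 were called by edgeR, DESeq2 or limma voom (2 at unadjusted p under 0.05). Pik3cd, the catalytic subunit of the leukocyte PI3K, was the highest of them, at 846 against 867 CPM.

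Of 15 tested BACH2 partners and repressed genes 2 fell and 0 rose in Id2-null cells, with a median log2 fold change of -0.23. Fosl2, an AP-1 factor, fell from 115 ± 19.3 to 55.1 ± 3.37 CPM (-1.06 on the log2 scale, adjusted p = 0.00927, edgeR). Maf, a bZIP factor, fell from 46.3 ± 12.5 to 16.6 ± 3.57 CPM (-1.48 on the log2 scale, adjusted p = 0.0214). The Maf call did not survive leaving out any 1 of 4 cultures, replicates 1 and 3 of WT and replicates 1 and 2 of Id2-null (adjusted p 0.0701 to 0.104), and that of Fosl2 without WT replicate 1 (0.058). With the block 4 were lower, Prdm1 and Zbtb32 besides, and 1 was higher, Il2ra. Prdm1, which encodes the effector factor BLIMP-1, had 82.1 ± 42.9 CPM in WT and 29.8 ± 19.8 CPM in Id2-null cultures, with an adjusted p of 0.345 that became 0.00581 under the block.

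Among 14 tested TCF-LEF partners and Wnt feedback genes 1 rose, Bcl9l, a beta-catenin cofactor, from 42.1 ± 4.22 to 88.0 ± 8.65 CPM (1.07 on the log2 scale, adjusted p = 0.00555, edgeR), and 0 fell. With the block 2 were higher, Tle4, a corepressor, besides (112 in WT, 171 CPM in Id2-null; blocked adjusted p = 0.0161). Of 13 tested quiescence genes 1 rose, Foxp1, a forkhead repressor of activation, from 139 ± 8.71 to 201 ± 14.1 CPM (0.54 on the log2 scale, adjusted p = 0.0473), and 2 with the block, Klf2 besides. The Foxp1 call was lost without any 1 culture other than Id2-null replicate 3 (adjusted p 0.0848 to 0.201), with no expression filter, with library sizes alone and with all 9 libraries in the fit (0.0523 to 0.0671). The median log2 fold change over the quiescence list was 0.32, and 12 of its 13 genes had a higher fitted level in Id2-null cells, as did 5740 of all 11022 genes.

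Neither of the other lists held a call by edgeR. Of 8 MYB partners and targets 0 were called by edgeR, DESeq2 or limma voom (2 at unadjusted p under 0.05), and the highest was Bcl2, a survival gene, at 573 against 752 CPM in WT and Id2-null cultures. Of 12 RUNX and SATB1 partners 0 were called by these tools (1 at unadjusted p under 0.05), and 1 with the block, Cbfa2t3, a corepressor (82.8 in WT, 131 CPM in Id2-null; blocked adjusted p = 0.0154). The highest of this list was Ets1, a lymphoid factor, at 595 against 686 CPM.

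**Figure D5:**
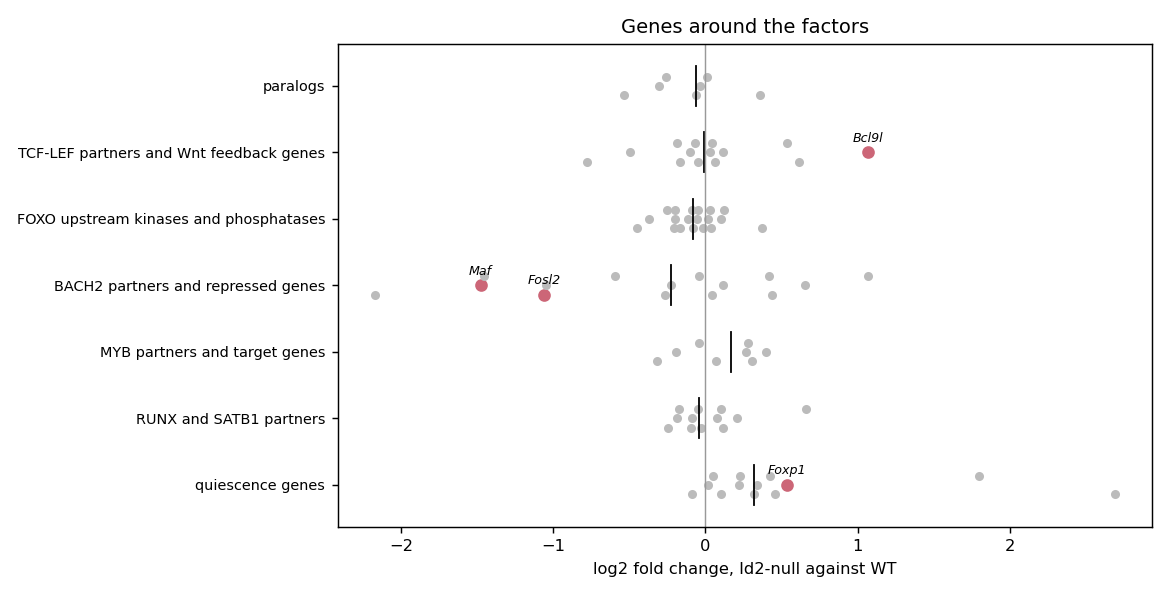
Log2 fold change, Id2-null against WT, of the tested genes of 7 lists (one point per gene; the FOXO target list is not drawn), with genes called at an adjusted p under 0.05 in red and named, and list medians as black lines. Called genes are Bcl9l, Maf, Fosl2 and Foxp1, and the list medians lie between -0.23 and 0.32.

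The genes whose log2 levels followed each member most closely over the 9 libraries were searched among the 7838 genes whose mean log2 CPM reached 4. These correlations describe 9 libraries that share 2 cultured groups, and they carry no p. For Tcf7 they were Cd27 (r = 0.961), a receptor of less mature NK cells, Cxcr3 (0.961), a chemokine receptor, and Aff3 (0.959). For Foxo1 they were Mpp1 (0.967), Map3k8 (0.965), a kinase of the MAP kinase cascade, and Igtp (0.954). Bach2 was followed by Rhoh (0.966), Tapt1 (0.958) and Herc3 (0.958), and Satb1 by Jak1 (0.988), a kinase of cytokine receptors, Gimap6 (0.987) and Lypla1 (0.986). Runx1 was followed by Card19 (0.993), Emp3 (0.987) and Abcb1a (0.987), and Myb by Zzz3 (0.961), Traf1 (0.959) and Slc38a1 (0.951). Lef1, low in replicate 3, was followed by Actg1 (0.979), a cytoplasmic actin, Ubb-ps (0.970), a pseudogene that may share reads with its parent, and Gpx4 (0.964), and Foxo3 by Camk2n1 (0.953), Cd200r4 (0.948) and Afdn (0.947). Among the members themselves the highest correlation was between Foxo3 and Runx1 (0.934), and the lowest was between Myb and Runx1 (-0.785).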

How the data were processed

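Each deposited file lists whole-number read counts for 27179 Entrez genes and the length of each gene, per the file headers. The submitters' processing notes name Subread, featureCounts and limma, and the build GRCm38 (mm10). Their versions, the annotation and the strand setting were not given in the sources used here. RefSeq GRCm38.p6 supplied symbols and positions for 25275 of the identifiers.

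Id2-null and WT cultures were compared with edgeR 4.0.16 in R 4.3.3. The filter on low counts (filterByExpr, minimum 10) passed 11022 genes. Libraries were scaled by TMM, and a quasi-likelihood test with genotype alone was adjusted by Benjamini-Hochberg over all genes tested, with calls at an adjusted p under 0.05. Levels are CPM with TMM factors over all 9 libraries, or TPM from the authors' lengths where genes are set against each other. The sorted libraries were not tested. Same-numbered cultures deviated together from their group means (correlations of 0.35, 0.24 and 0.42 over the genes tested). Replicates 1 and 2 were less clearly told apart: Id2-null 1 with WT 2 gave 0.19, and Id2-null 2 with WT 1 gave 0.14. The labels do not say that a number is shared, so the blocked fit was run as an alternative to genotype alone. DESeq2 1.42.0, limma 3.58.1 (voom), other scalings, no filter, all 9 libraries, each culture left out and replicate 3 of both genotypes left out were the other alternatives. The robust option of edgeR was added after the data had been seen, and the default is reported because the design had named no robust option. The edgeR, blocked, DESeq2 and limma voom fits were also run on simulated counts with the same spread for every gene and no replicate effect. That run does not bear on spread that differs by gene or on deviations shared by replicate number. The members and lists were chosen with earlier results of these data known. Named besides the members are the family genes with at least 10 counts in a library and, per list, up to 4 called genes by adjusted p or, with none called, the gene with the highest mean. Genes named for a call under the block, and marker genes, were chosen after their values were seen. Some results of these lists are not reported here.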

Additional observations from a re-analysis of the deposited data

How the results depend on the processing

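The directions of all 8 members held under the 15 alternatives to the edgeR fit, and Tcf7, Foxo1 and Bach2 stayed called in all of them (adjusted p up to 0.0424), while Lef1, Foxo3, Myb and Satb1 were called in none. Runx1 kept its log2 fold change of -1.64 with the robust option but missed the threshold (adjusted p = 0.0537), and it ranged from -1.84 to -1.32 with 1 culture left out, called only without Id2-null replicate 3. The count of called genes was 696 with the replicate number as a block, 580 with DESeq2, 1014 without replicate 3 of both genotypes, and 105 (without WT replicate 1) to 624 (without Id2-null replicate 3) with 1 culture left out, each of the 6 moving it by over 1.5 times and with fewer libraries in the fit. The cause of the other changes was not tested. With the block the log2 fold change of Tcf7 was 2.12 (adjusted p = 0.00615), and the block changed no call among the members. Scaling by library size alone moved the ratios of WT cultures to sorted libraries by more than the WT spread for Foxo1, Foxo3 and Satb1 (9 ratios), taking Foxo1 against M2 to 0.02, and Satb1 and Bach2 stayed over 2-fold lower against all 3. Depth limits Myb most in sorted cells, with 36 counts in M2.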

Other observations

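In the list of other progenitor and lineage transcription factors, 1 of 15 tested genes rose in Id2-null cells, Id3, which encodes another Id protein, from 0.76 ± 0.84 to 54.4 ± 9.69 CPM (SD, n = 3 each; adjusted p = 0.00131, edgeR), and 0 fell. With the replicate block Mef2c was called too, at 43.2 against 73.5 CPM (adjusted p = 0.0156 with the block). Without Id2-null replicate 3, which had 125 CPM, its log2 fold change with genotype alone went from 0.77 to 0.13. Tox, a factor of early NK development, had 38.6 against 36.0 CPM in WT and Id2-null cultures and 110.0, 82.3 and 50.1 CPM in Immature, M1 and M2. Zeb2, a factor of terminal NK maturation, had 18.2 ± 3.73 against 8.73 ± 7.82 CPM in the cultures (adjusted p = 0.441) and 48.4, 183 and 292 CPM in Immature, M1 and M2. Ikzf1, which encodes Ikaros, had 400.4 against 522 CPM in WT and Id2-null cultures and 1255 to 1575 CPM in sorted cells. Tox, Zeb2 and Ikzf1 were named after their values were seen.

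Of 9 markers of other innate lymphoid cells 5 were tested. Of these, 3 were called lower in Id2-null cells, against 1.52% of all genes tested, and 0 were called higher. The other 2 had a higher fitted level in Id2-null cells, and 4 of the 5 had an unadjusted p under 0.05 by edgeR. Cd200r1, an inhibitory receptor, fell from 35.4 ± 8.68 to 4.84 ± 1.14 CPM (adjusted p = 0.00199, edgeR), Tmem176b from 36.0 ± 2.71 to 6.32 ± 1.60 CPM (adjusted p = 0.00131) and Tmem176a from 19.9 ± 3.92 to 5.10 ± 1.41 CPM (adjusted p = 0.00894). Tmem176a lies within the span of Tmem176b on chromosome 6, so these are not separate loci. In Immature, M1 and M2, Cd200r1 had 9.42, 5.07 and 7.27 CPM, Tmem176b 33.4, 7.24 and 8.27 CPM, and Tmem176a 20.4, 2.65 and 6.01 CPM.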
